A study of Mus musculus with 4 samples.

Results

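CCR2 is the receptor that lets classical monocytes out of the bone marrow and guides them into inflamed organs. It is coupled to inhibitory G proteins and answers a small group of monocyte chemoattractant proteins. In the mouse these ligands are encoded by Ccl2, Ccl7, Ccl8 and Ccl12, which are secreted by macrophages (Mφs), stromal cells and other cells of an injured tissue and set up the gradient that CCR2+ cells follow. Mouse CCL8 is also known as an agonist of CCR8. CCR2 takes up CCL2 and removes it from the surroundings, so that mice without the receptor are known to hold more of the protein.

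The 5 genes of this axis, Ccr2, Ccl2, Ccl7, Ccl8 and Ccl12, were taken by name from the 16308 genes of 4 droplet count tables and were described across leukocyte classes, genotypes and times. The tables came from CD45+ cells sorted from the muscularis, the muscle layer of the small intestine, of 12-week-old mice after intestinal manipulation, a surgical handling of the gut that inflames this layer. There was 1 library each of wild-type (WT) C57BL/6J mice and of CCR2 KO mice (Ccr2-/-, B6.129S4-Ccr2tm1Ifc/J) at 24 h and at 72 h after injury. The study asked whether CCR2+ monocytes are the source of the Mφs that appear as the inflammation resolves. The KO mice lacked the receptor in every tissue from birth, the cells of several mice were pooled in a library, and no uninjured mice were analysed here. With 1 library per genotype and time there were no replicates, so no p-value is given. All intervals are 95% intervals that cover counting error only, and each comparison is between 2 libraries.

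The libraries held 1674 WT and 1770 CCR2 KO cells at 24 h and 1315 WT and 1042 CCR2 KO cells at 72 h after 10 non-immune cells had been removed, with 9736725 to 21206308 unique molecular identifiers (UMIs) per library, each UMI being 1 captured transcript. The CCR2 KO libraries stood apart in their makeup. Monocyte/Mφ-like cells were 76.3% and 64.9% of the WT cells at 24 h and 72 h (1277 and 854 cells) but 12.3% and 14.3% of the CCR2 KO cells (218 and 149). Neutrophil-like cells were 307 and 192 in WT and 1339 and 590 in CCR2 KO, and a granulocyte cluster led by Siglecf, an eosinophil marker, made up 104 of the 192 in WT at 72 h and 369 of the 590 in CCR2 KO at 72 h. Dendritic cell-like cells numbered 61 and 166 in WT and 60 and 126 in CCR2 KO. All 18 markers of the monocyte/Mφ class, which also named it, reached 20 CPM in it in every library, CPM being a gene's UMIs scaled to 1000000 UMIs of the class. Their summed level was 33761 CPM in WT and 27731 CPM in CCR2 KO at 24 h, and 62861 and 22542 CPM at 72 h. Different clusters filled the class in different libraries. A cluster led by Apoe, Fcrls and Ms4a7 held 523 of the 854 WT cells at 72 h and 5 of the 149 CCR2 KO cells.

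The 4 ligand genes lie close together, with another CC chemokine gene, Ccl11 (82057823 to 82062955), between Ccl7 and Ccl12. On mouse chromosome 11 (GRCm38, plus strand) Ccl2 spans 82035571 to 82037453, Ccl7 spans 82045712 to 82047525, Ccl12 spans 82101845 to 82103400 and Ccl8 spans 82115185 to 82116799. The start of Ccl2 and the end of Ccl8 are 81229 bases apart, and each gene has 3 exons. Ccr2 spans 124101950 to 124113557 on chromosome 9 (plus strand). Ccl12 and Ccl8 are neighbours, 11784 bases apart, and in WT monocyte/Mφ-like cells Ccl12 was lower and Ccl8 higher at 72 h than at 24 h. Their promoters, the 250 bases before the RefSeq start (GRCm38.p6, plus strand, chr11:82114935-82115184 for Ccl8 and chr11:82101595-82101844 for Ccl12), are therefore shown, with the TATAAA letters in capitals.
Ccl8: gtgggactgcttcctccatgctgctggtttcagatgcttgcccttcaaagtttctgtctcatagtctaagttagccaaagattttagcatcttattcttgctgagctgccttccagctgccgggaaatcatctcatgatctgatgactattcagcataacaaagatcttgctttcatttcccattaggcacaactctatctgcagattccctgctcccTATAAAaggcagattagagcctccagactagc
Ccl12: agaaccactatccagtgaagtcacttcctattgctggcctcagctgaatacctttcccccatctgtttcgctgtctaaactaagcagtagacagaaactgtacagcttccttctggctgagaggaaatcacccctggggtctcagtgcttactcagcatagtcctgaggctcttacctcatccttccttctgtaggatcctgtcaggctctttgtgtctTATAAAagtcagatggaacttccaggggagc
The windows shared 147 of 268 aligned positions (54.9%). TATAAA began 32 bases before the start of Ccl8 and 31 before that of Ccl12, and 12.4% of the 32851 promoters in the table held it. On neither strand of these windows were the letters of the NF-kB core found (GGGA, 4 bases of any kind, CC; in 17.6% of all promoters), nor TGANTCA of AP-1 (6.75%), the core of interferon response elements (GAAA, 2 bases of any kind, GAAA; 2.98%), TTNNGCAA of C/EBP (9.56%) or TTCNNNGAA of STAT factors (7.02%).

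Ccr2, the targeted gene, was read in every library and was lower in both CCR2 KO libraries. In monocyte/Mφ-like cells it stood at 754.5 CPM (742 to 767) in the WT library of 24 h and at 95.5 CPM (85.7 to 106) in that of CCR2 KO. At 72 h the WT level was 1084 CPM (1066 to 1103) and the CCR2 KO level 83.2 CPM (71.3 to 96.5). The intervals of the genotypes did not overlap at either time. The CCR2 KO level was 7.90-fold lower at 24 h, a log2 ratio of -2.98 (-3.14 to -2.83), and 13.03-fold lower at 72 h, a log2 ratio of -3.70 (-3.93 to -3.49). The 72 h ratio was -2.78 with cells of at most 5% mitochondrial UMIs. At 24 h Ccr2 was the 1 gene of the axis that was more than 2-fold lower in CCR2 KO, as were 1.36% of the 5867 genes compared in that class. At 72 h it was again the 1 gene, beside 2.58% of 6395 genes.

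Transcripts of Ccr2 remained above background in the CCR2 KO cells. With every cell reduced at random to 1000 UMIs (thinning), 45.5% of WT and 7.51% of CCR2 KO monocyte/Mφ-like cells had a Ccr2 UMI at 24 h, and 53.6% and 5.34% did at 72 h. The step left out 10, 5, 11 and 18 shallower cells in the order given, and unthinned the shares were 86.6% and 43.1%, then 84.1% and 21.5%. In neutrophil-like cells, which served as background, the thinned shares were 0.697% and 0.0758% at 24 h and 1.09% and 0% at 72 h, with 20, 19, 8 and 30 cells left out. Median depths were 12695 to 15803 UMIs in the monocyte/Mφ-like and 2049 to 3378 UMIs in the neutrophil-like cells. The CCR2 KO 72 h neutrophil-like cells gave 0 Ccr2 UMIs in 590 cells, with an upper bound of 1.63 CPM. The library reads transcripts near their 3′ ends, and the part of Ccr2 that the allele removes was not given in the sources used here, so these UMIs do not check the deleted part. Ccr2 and the ligand genes have paralogs, with which counting could in part exchange reads.

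The cells that held the remaining Ccr2 UMIs had few each. In the CCR2 KO 24 h library 94 of 218 cells had 1 or more, with a median of 3 UMIs in those cells, and 30 of them had a single UMI. In the CCR2 KO 72 h library 32 of 149 cells had 1 or more, with a median of 4, and 11 had a single UMI. In WT 1106 of 1277 cells (median 11) and 718 of 854 cells (median 15) had one. Sub-clusters of the class, named here by their leading genes, show where these UMIs lay. A sub-cluster led by Fabp4, Inhba and AA467197 gave 226 of the 346 Ccr2 UMIs of CCR2 KO at 24 h (65.3%). One led by S100a8, Lrg1 and Dmkn gave 104 of the 175 at 72 h (59.4%) from 12 cells. Over both times that S100a8-led sub-cluster had 339 CPM of Ccr2 in 23 CCR2 KO cells, 21 of which had a UMI, and 1482 CPM in 124 WT cells. S100a8, an alarmin of neutrophils and young monocytes, is among the neutrophil markers, and in the whole class the 11 neutrophil markers summed to 1197 CPM in WT and 634.5 CPM in CCR2 KO at 24 h, and to 528 and 668 CPM at 72 h. The part of these markers in the result was not tested.

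Outside the monocyte/Mφ class Ccr2 was read in dendritic cell-like and lymphoid cells. Dendritic cell-like cells held 707.5 and 610 CPM in WT at 24 h and 72 h, compared with 34.7 and 46.6 CPM in CCR2 KO, log2 ratios of -4.35 and -3.71. The WT dendritic cell-like level (657 to 760 CPM at 24 h, 584 to 637 CPM at 72 h) overlapped that of the monocyte/Mφ-like cells at 24 h and was below it at 72 h. T cell-like cells had 463 CPM in WT at 72 h and 119 CPM in CCR2 KO at 72 h, and 91.7 CPM in CCR2 KO at 24 h. Cells like T cells, NK cells and innate lymphoid cells were also summed, because WT at 24 h had 22 of them. They had 268 and 95.9 CPM at 24 h and 511.5 and 126 CPM at 72 h, with WT the higher at each time. NK cell-like cells of the CCR2 KO libraries had the highest Ccr2 level of the CCR2 KO classes with at least 20 cells, at 196 CPM at 24 h and 209 CPM at 72 h.

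Because the libraries differed in makeup, the cells that gave the Ccr2 UMIs differed too. In WT the monocyte/Mφ-like cells gave 94.9% of all Ccr2 UMIs at 24 h and 84.3% at 72 h. In CCR2 KO they gave 70.2% and 33.5%, and at 72 h the dendritic cell-like cells gave 32.7%, the T cell-like cells 22.4% and the NK cell-like cells 9.94%. Over all cells of a library Ccr2 stood at 720 and 47.4 CPM at 24 h and at 922.6 and 54.4 CPM at 72 h. These log2 ratios of -3.93 and -4.08 were lower than those within the class. In such sums fewer cells of a class and fewer transcripts per cell cannot be told apart.

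**Figure D1:**
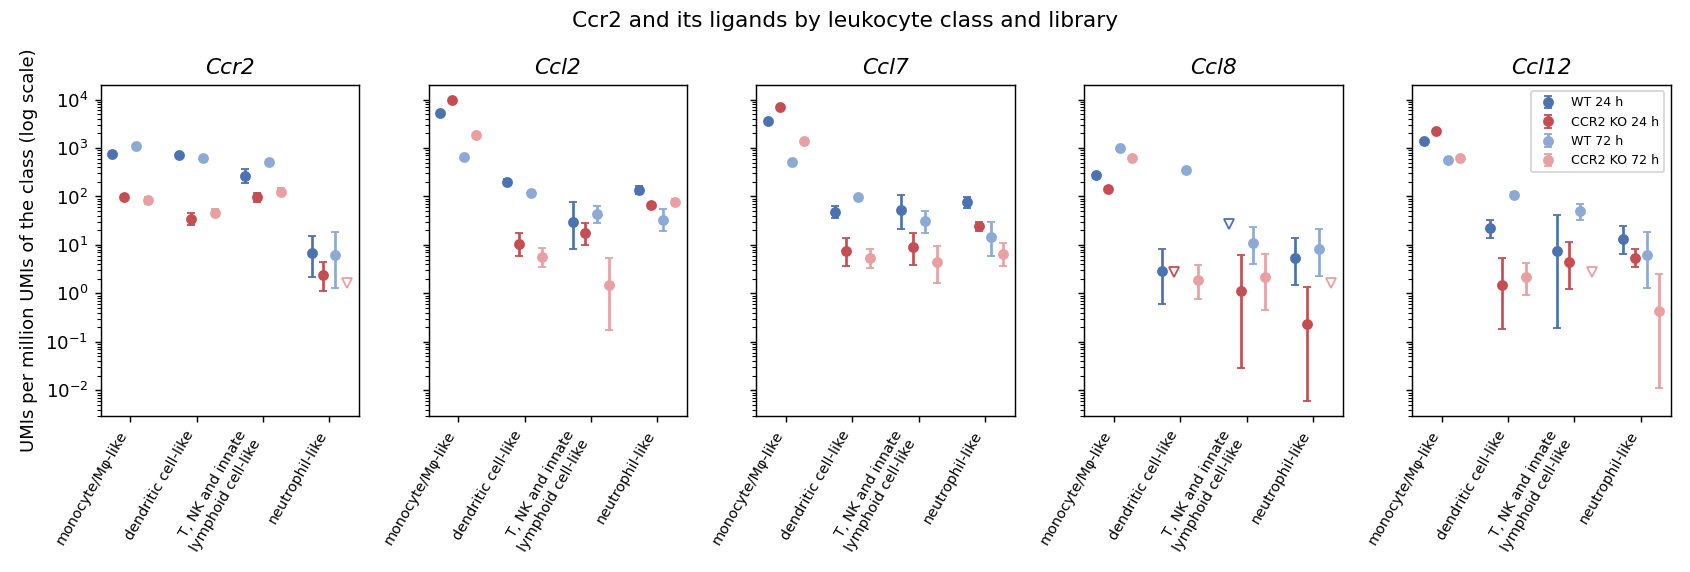
Level of each gene, in CPM on a log axis, in monocyte/Mφ-like, dendritic cell-like, neutrophil-like and the summed T cell-, NK cell- and innate lymphoid cell-like cells of the 4 libraries. Points are single libraries, bars are 95% counting intervals, and a class at 0 UMIs is drawn at the upper bound of its interval. Ccr2 is lower in both CCR2 KO libraries in monocyte/Mφ-like, dendritic cell-like and the summed lymphoid cells, and the 4 ligands are highest in monocyte/Mφ-like cells.

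The ligands came almost wholly from monocyte/Mφ-like cells within the sorted CD45+ pool. Of the summed UMIs of the 4 ligands, this class gave 99.8% in WT and 99.3% in CCR2 KO at 24 h, and 91.8% and 97.3% at 72 h. Of the UMIs of all genes these cells gave 90.6% and 34.8% in the 24 h libraries of WT and CCR2 KO, and 71.7% and 21.9% in those of 72 h. The lowest share of a single ligand in the class was 89.9%, for Ccl8 in WT at 72 h. Stromal, glial and muscle cells lie outside a CD45+ sort, so their part in the ligands of the tissue was not measured.

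Within the class Ccl2, the ligand best known for drawing monocytes, was higher in CCR2 KO at both times. It stood at 5286 CPM in WT and 9679 CPM in CCR2 KO at 24 h, 1.83-fold higher (log2 ratio 0.87), and at 648 and 1819 CPM at 72 h, 2.81-fold higher (log2 ratio 1.49, 1.43 to 1.55). CCR2 KO at 24 h had the highest level, followed by WT at 24 h, then by CCR2 KO and last by WT of the later time, and no 2 intervals overlapped. Of the class's cells 92.8% and 92.7% had a Ccl2 UMI at 24 h in WT and CCR2 KO, and 70.4% and 79.9% did at 72 h. The share of cells was thus nearly the same in the genotypes at 24 h while the summed level was not. After thinning the shares were 74.0% and 78.9% at 24 h and 31.1% and 48.9% at 72 h.

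Ccl7, which also acts through other receptors of the family, had the same order. It stood at 3527 and 7099 CPM in WT and CCR2 KO at 24 h, 2.01-fold higher in CCR2 KO (log2 ratio 1.01, 0.99 to 1.03). At 72 h it stood at 518.5 and 1367 CPM, 2.64-fold higher in CCR2 KO (log2 ratio 1.40, 1.33 to 1.46). At 24 h Ccl7 was the 1 gene of the 5 past 2-fold higher, beside 2.78% of all genes compared. At 72 h Ccl2 and Ccl7 were, 2 of the 5, beside 5.93% of all genes.

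Ccl12, which in the mouse is the close relative of Ccl2, was higher in CCR2 KO at 24 h, with 1392 CPM in WT and 2256 CPM in CCR2 KO (1.62-fold, log2 ratio 0.70, 0.66 to 0.73). At 72 h its levels were 554 and 625 CPM, a log2 ratio of 0.17 (0.088 to 0.26). This small ratio rested on single cells. Without the 1 cell with the most Ccl12 UMIs in each library it was -0.02, and as a mean over cells, each cell weighted equally, it was -0.32.

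Ccl8 went the other way. It stood at 273 CPM in WT and 142 CPM in CCR2 KO at 24 h (log2 ratio -0.94, -1.07 to -0.81) and at 976 and 624 CPM at 72 h (log2 ratio -0.65, -0.73 to -0.56). The 72 h ratio was -1.83 with cells of at most 5% mitochondrial UMIs, which left 52 CCR2 KO cells. It was -4.01 without the sub-clusters led by Igkc or by S100a9, which are described further on. WT at 72 h had the highest level, followed by CCR2 KO at 72 h and then by WT and CCR2 KO of the earlier time, again with no overlap. Ccl8 was also held by few cells. Of the class's cells 11.7% and 13.8% had a UMI at 24 h and 39.1% and 40.9% did at 72 h, in WT and CCR2 KO. The tenth of the cells with the most Ccl8 held 99.6% and 98.4% of its UMIs at 24 h and 84.1% and 69.1% at 72 h. The share of cells with a UMI was no lower in CCR2 KO than in WT, and after thinning it was 6.00% and 7.51% at 24 h and 21.7% and 29.8% at 72 h. At 24 h the lower sum thus lay in the UMIs of the high cells. The CCR2 KO share at 72 h rested mostly on a sub-cluster led by Igkc, Igha and Stmn1, where 57 of 76 cells had a Ccl8 UMI. Among CCR2 KO cells led by Cxcl13, Ctla2a and Prg4, 2 of 34 had one. In WT at 72 h 39 of 54 Igkc-led, 4 of 23 Cxcl13-led and 197 of 394 Apoe-led cells had one.

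Summed over the 4 ligands, the class held 10478 CPM in WT and 19177 CPM in CCR2 KO at 24 h, a log2 ratio of 0.87 (0.86 to 0.88). At 72 h it held 2696 and 4435 CPM, a log2 ratio of 0.72 (0.68 to 0.75). The median cell had 5824 and 10045 CPM of summed ligand at 24 h and 1187 and 2898 CPM at 72 h, so a typical CCR2 KO cell was also the higher. The cells spread widely, with quartiles of 1230 and 13671 CPM in WT and 2803 and 26217 CPM in CCR2 KO at 24 h. The median log2 ratio of all genes compared was -0.07 at 24 h and 0.13 at 72 h, and those of the 72 h to 24 h comparisons were -0.05 in WT and 0.14 in CCR2 KO. The ligand ratios of 72 h in CCR2 KO are therefore read against a shift of that size.

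Over all cells of a library the direction for Ccl2, Ccl7 and Ccl12 was the opposite. At 24 h Ccl2 stood at 4804 CPM in the WT library and 3399 CPM in the CCR2 KO library, and Ccl7 at 3200 and 2483 CPM. At 72 h these were 498 and 419 CPM for Ccl2 and 403 and 303 CPM for Ccl7. The log2 ratios over all cells were -0.50 (Ccl2), -0.37 (Ccl7), -2.31 (Ccl8) and -0.68 (Ccl12) at 24 h, and -0.25, -0.41, -2.50 and -1.64 at 72 h. The summed ligands stood at 9514 CPM in WT and 6721 CPM in CCR2 KO at 24 h, and at 2108 and 997 CPM at 72 h, log2 ratios of -0.50 and -1.08. The CCR2 KO pools thus held a lower fraction of ligand transcripts, while the monocyte/Mφ-like cells in them held more Ccl2 and Ccl7 on the CPM scale.

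**Figure D2:**
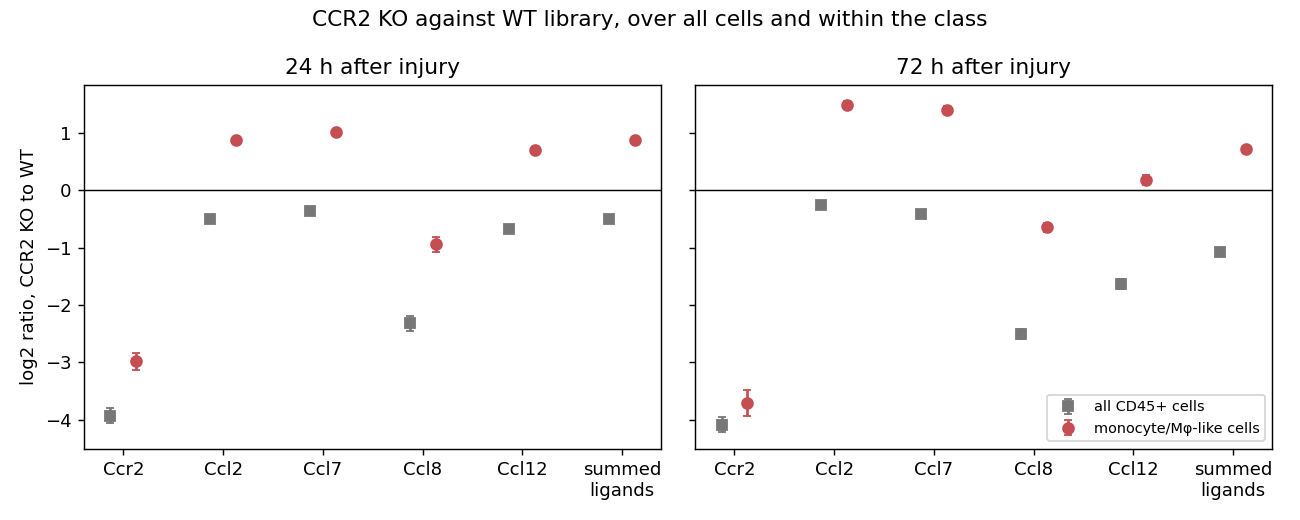
Log2 ratio of the CCR2 KO library to the WT library for each gene and for the summed ligands, at 24 h and 72 h, over all CD45+ cells and within monocyte/Mφ-like cells, with 95% counting intervals. Summed ligands are below 0 over all cells (-0.50 and -1.08) and above 0 within the class (0.87 and 0.72), and Ccr2 is below 0 in both.

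Between 24 h and 72 h the ligands did not move together. In WT monocyte/Mφ-like cells Ccl2 was 8.16-fold lower at 72 h (log2 ratio -3.03), Ccl7 6.80-fold lower (-2.77) and Ccl12 2.51-fold lower (-1.33), while Ccl8 was 3.58-fold higher (1.84). In CCR2 KO cells Ccl2 was 5.32-fold lower (-2.41), Ccl7 5.19-fold lower (-2.38) and Ccl12 3.61-fold lower (-1.85), and Ccl8 was 4.38-fold higher (2.13). The Ccl8 value in CCR2 KO was 0.83 with cells of at most 5% mitochondrial UMIs. It turned to -1.37 without the sub-clusters led by Igkc or by S100a9. In both genotypes 3 of the 5 genes were thus past 2-fold lower, beside 6.76% of all genes in WT and 4.87% in CCR2 KO, and 1 was past 2-fold higher, beside 6.74% and 10.6%. The summed ligands had a log2 ratio of -1.96 (-1.98 to -1.94) in WT, while that of CCR2 KO was -2.11 (-2.14 to -2.08). Ccr2 was higher at 72 h in WT (log2 ratio 0.52, 0.49 to 0.56). In CCR2 KO its log2 ratio was -0.20 with an interval from -0.47 to 0.067, and the value depended on the cells taken. It was -0.34 (-0.62 to -0.05) without the cell with the most Ccr2 UMIs in each library. With cells of at most 5% mitochondrial UMIs it was 0.95 (0.64 to 1.26). Without the sub-clusters led by Igkc or by S100a9 it was 1.28 (1.003 to 1.55), so no direction is given.

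As a result the mix of ligands changed. Each UMI is read at the 3′ end of a transcript, so shares of UMIs need no scaling by gene length. At 24 h the 2 genotypes had like mixes, in which Ccl2 was 50.5% and 50.5%, Ccl7 33.7% and 37.0%, Ccl12 13.3% and 11.8% and Ccl8 2.60% and 0.74% of the ligand UMIs in WT and CCR2 KO. At 72 h Ccl8 led in WT with 36.2%, ahead of Ccl2 with 24.0%, Ccl12 with 20.5% and Ccl7 with 19.2%. In CCR2 KO at 72 h Ccl2 still led with 41.0%, followed by Ccl7 with 30.8% and by Ccl8 and Ccl12 with 14.1% each.

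**Figure D3:**
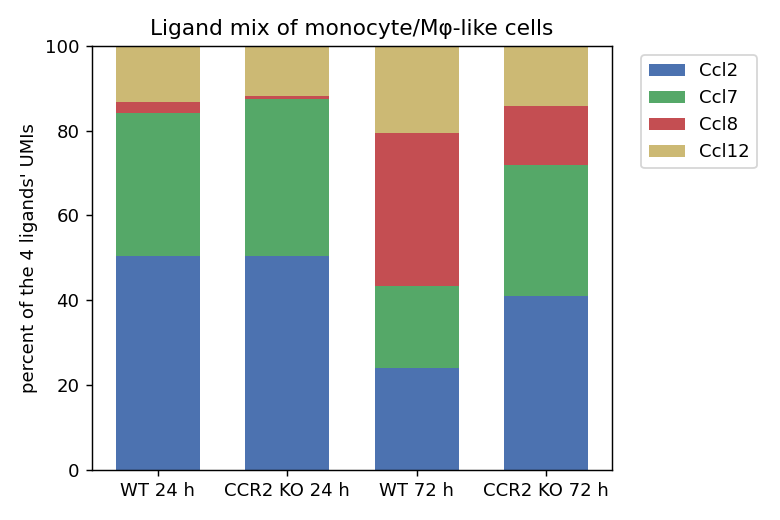
Percent of the summed UMIs of the 4 ligands that each ligand gave in monocyte/Mφ-like cells of the 4 libraries, as stacked bars from 0 to 100. Ccl8 takes 2.60% and 0.74% at 24 h in WT and CCR2 KO, 36.2% in WT at 72 h and 14.1% in CCR2 KO at 72 h.

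Within the WT class the receptor and the ligands peaked in different sub-clusters. At 24 h Ccr2 was highest in the sub-cluster led by S100a8, Lrg1 and Dmkn (94 cells, 1349 CPM) and in one led by Cxcl9, Cxcl10 and Ms4a4c (351 cells, 1167 CPM), which gave 41.1% of the Ccr2 UMIs. Their summed ligands were 4727 and 5666 CPM. The sub-clusters led by Fabp4, Inhba and AA467197 (74 cells), by Pf4, Fabp5 and Ppbp (324 cells) and by Cxcl3, Il1a and Fpr1 (312 cells) had the most ligand, 15443, 14286 and 13592 CPM. Their Ccr2 levels were 801, 355 and 626 CPM. In the S100a8-led cells the ligand that remained was mostly Ccl2, with 3521 CPM compared with 846 CPM of Ccl7 and 1.4 CPM of Ccl8.

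Ccl8 at 24 h lay mostly in 1 sub-cluster in WT and in 2 in CCR2 KO. In WT the Pf4-led cells held 875 CPM and gave 87.0% of the class's Ccl8 UMIs. Cells led by Mmp13, Ch25h and Lilra5 came next with 541.5 CPM in 26 cells. In CCR2 KO these Mmp13-led cells led with 54.8% of the Ccl8 UMIs (283 of 516), and the Pf4-led cells gave 38.0% (196). The WT Cxcl3-led and Fabp4-led cells held 7.8 and 3.7 CPM of Ccl8 beside 7667 and 8813 CPM of Ccl2. High Ccl2 and Ccl7 levels were thus read both with and without Ccl8.

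In WT at 72 h the highest Ccr2 was read in 30 S100a8-led cells (1931 CPM) and in 174 cells led by Ear2, Mgl2 and H2-Eb1 (1687 CPM), H2-Eb1 being a gene of the MHC class II complex. The 394 cells led by Apoe, Ms4a7 and Fcrls held 997.5 CPM of Ccr2 and gave 41.0% of its UMIs, and also 47.7% of the Ccl8 UMIs at 1045 CPM. Cells led by Ltc4s, Retnla and Cd5l (131 cells) had 1682 CPM of Ccl8 with 543 CPM of Ccl2. The highest Ccl8 level among the sub-clusters with at least 20 cells, 1963 CPM, was in 54 cells led by Igkc, Igha and Stmn1, which are antibody genes and a gene of dividing cells. In each of these 3 sub-clusters Ccl8 exceeded Ccl2, Ccl7 and Ccl12. In the Ear2-led cells Ccl2 (892 CPM) exceeded Ccl8 (280 CPM). Among CCR2 KO sub-clusters with at least 20 cells at 72 h, the Cxcl13-led cells had the higher Ccr2 (89.6 compared with 7.2 CPM in the Igkc-led cells). They also had the higher summed ligands (6141 compared with 3526 CPM). These Ccr2 levels were 9 and 10 UMIs, 5 of them in 1 cell in each sub-cluster. The S100a8-led cells, with 104 Ccr2 UMIs in 12 cells, were too few to be compared. No order of receptor and ligands is therefore given for this library. In the CCR2 KO 72 h library cells with a Ccr2 UMI held 5681 CPM of ligand and those without held 3880 CPM, at median depths of 17565.5 and 9588 UMIs. At thinned depth Ccr2 was read in 2 of 64 cells with a Ccl2 UMI and in 5 of 67 without. These counts were 2 of 65 and 5 of 66 for Ccl7, 0 of 39 and 7 of 92 for Ccl8, and 1 of 29 and 6 of 102 for Ccl12. Each share was the lower in cells with the ligand, as in WT at 24 h, but the intervals overlapped. In CCR2 KO at 24 h this order was read for Ccl2 (6.55% and 11.1%) and Ccl7 (4.93% and 12.7%). It was not read for Ccl12 (7.62% and 7.41%), and these intervals overlapped too. For Ccl8 the counts there were 0 of 16 and 16 of 197.

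**Figure D4:**
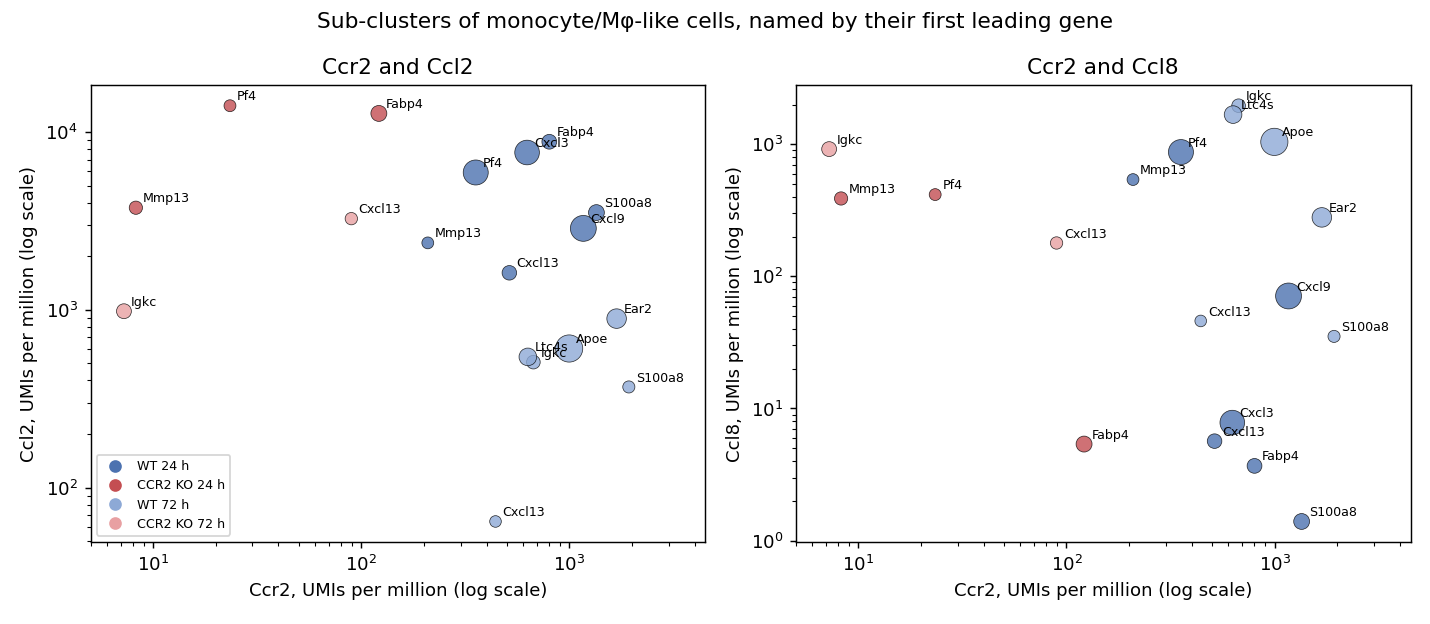
Level of Ccr2 (x axis) against Ccl2 and against Ccl8 (y axes), in CPM on log axes, for the sub-clusters of monocyte/Mφ-like cells in each library, with larger points for more cells and each point marked by its first leading gene. WT S100a8-led cells lie at high Ccr2 and low Ccl8 at 24 h (1349 and 1.4), and Pf4-led WT cells at lower Ccr2 and higher Ccl8 (355 and 875).

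Cells at the same thinned depth showed the same pattern. In WT at 24 h 34.8% of the 724 cells with a Ccl7 UMI had a Ccr2 UMI, compared with 59.9% of the 543 cells without. For Ccl2 these shares were 41.6% and 56.7%, for Ccl12 33.6% and 52.9% and for Ccl8 19.7% and 47.2%. For each ligand the share was the lower in cells that had it, and no pair of intervals overlapped. In WT at 72 h this order remained for Ccl8, with 38.8% and 57.7%, and turned for Ccl2, with 58.4% and 51.5% and overlapping intervals. Ccl2 and Ccl7 were read together, with a Ccl2 UMI in 92.0% of the Ccl7-positive and 49.9% of the Ccl7-negative cells at 24 h and in 57.6% and 22.3% at 72 h. Ccl2 was read in 32.2% of Ccl8-positive and 30.8% of Ccl8-negative WT cells at 72 h. These shares describe the cells of 1 library each.

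The difference between genotypes at 24 h was also read inside sub-clusters that both libraries filled. In Pf4-led cells (324 WT and 27 CCR2 KO) Ccl2 stood at 5918 and 14053 CPM, Ccl7 at 5503 and 13320 CPM and Ccl8 at 875 and 417 CPM. The log2 ratios of CCR2 KO to WT there were 1.25, 1.28 and -1.07, with 0.81 for Ccl12 and -3.92 for Ccr2. In Fabp4-led cells (74 and 96) they were 0.53 for Ccl2, 0.59 for Ccl7, 0.78 for Ccl12 and -2.72 for Ccr2, and Ccl8 at 3.7 and 5.4 CPM gave an interval that spanned 0. In Mmp13-led cells (26 and 48) they were 0.66, 0.23, 1.22 and -4.66, and -0.48 for Ccl8. The summed ligands were higher in CCR2 KO in all 3 sub-clusters, with log2 ratios of 1.13, 0.57 and 0.59.

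**Figure D5:**
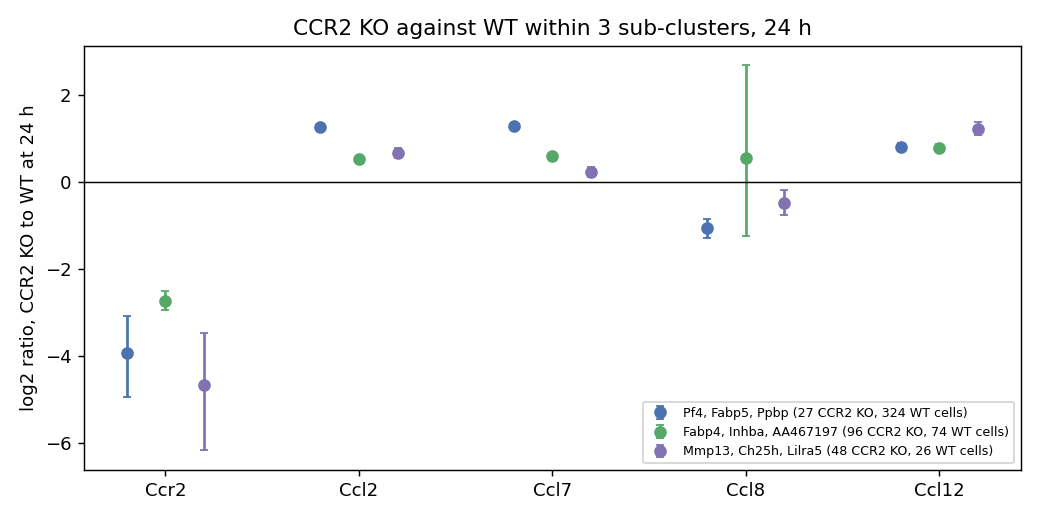
Log2 ratio of CCR2 KO to WT at 24 h for each of the 5 genes inside the 3 sub-clusters of monocyte/Mφ-like cells with at least 20 cells in both libraries, with 95% counting intervals. Ccr2 lies below 0 (-2.72 to -4.66) and Ccl2, Ccl7 and Ccl12 above 0 in all 3, and Ccl8 lies below 0 in the Pf4-led and Mmp13-led cells.

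At 72 h Ccl2 and Ccl7 were again higher in CCR2 KO inside both sub-clusters that the libraries filled. In the larger one, however, the interval of the summed ligands spanned 0. In the CCR2 KO library 76 of the 149 monocyte/Mφ-like cells were in the sub-cluster led by Igkc, Igha and Stmn1, compared with 54 of 854 in WT. Its further leading genes were Jchain, an antibody gene, and Pclaf, Birc5, Ube2c, Top2a, Mki67 and Ccna2, genes of dividing cells. Of the marker lists of monocyte and Mφ subsets, that of Cx3cr1 Mφs scored highest in it (1.40), as in the Mmp13-led cells (2.37). Over both times its 78 CCR2 KO cells held 318 CPM of Cx3cr1 and 1283 CPM of the Mφ marker Mrc1. Its 58 WT cells held 221 and 1099 CPM. Leaving this sub-cluster out thus also leaves out Mφ-like cells and cells with transcripts of cell division. In it at 72 h Ccl2 and Ccl7 had log2 ratios of 0.95 and 1.08, Ccl8 of -1.09, Ccl12 of 0.28 and Ccr2 of -6.54. The summed ligands had one of 0.04 (-0.03 to 0.11). The 76 CCR2 KO cells of 72 h gave 97.0% of the Ccl8 UMIs of the CCR2 KO class and 35.4% of its Ccl2 UMIs. The summed level of 4 plasma cell markers in the class was 1067 CPM in CCR2 KO at 72 h and 6.61 to 39.7 CPM in the other libraries. Their part in the Ccl8 level was not tested. Without this sub-cluster and a small one led by S100a9, Retnlg and S100a8 (4 cells of CCR2 KO at 72 h), 69 CCR2 KO cells remained. The log2 ratios of CCR2 KO to WT at 72 h were then -4.01 for Ccl8, 2.41 for Ccl2, 1.26 for the summed ligands and -2.26 for Ccr2. The cells led by S100a8, Lrg1 and Dmkn, with most of the Ccr2 UMIs, stayed in.

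The other sub-cluster that both 72 h libraries filled was led by Cxcl13, Ctla2a and Prg4. Its cells were shallow, with a median depth 0.271 of that of their libraries. In 23 WT and 34 CCR2 KO cells Ccl2 stood at 64.4 and 3255 CPM and Ccl7 at 64.4 and 2648 CPM, log2 ratios of 5.66 and 5.36. In the same sub-cluster at 24 h the WT cells (70) had 1614 CPM of Ccl2 and 829 CPM of Ccl7. The WT level was thus the lower at 72 h, and at this depth 64.4 CPM is 7 UMIs.

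A few cells of other classes carried ligand. Dendritic cell-like cells had 273 and 669 CPM of summed ligands in WT at 24 h and 72 h and 19.6 and 15.3 CPM in CCR2 KO, log2 ratios of CCR2 KO to WT of -3.80 and -5.45. The WT 72 h value rested on 37 of 166 cells, which had 3 or more ligand UMIs each and held 2207 of the class's 2237. In these 37 cells the 18 monocyte/Mφ markers summed to 29170 CPM and 16 of them reached 20 CPM. In the other 129 cells they summed to 3302 CPM, and in the monocyte/Mφ class of that library to 62861 CPM. In WT at 24 h 12 of 61 cells held 246 of 285 ligand UMIs, with a marker sum of 9545 CPM compared with 3425 CPM in the rest. B cell-like cells of WT at 72 h had 6 of 20 cells with 540 of 542 ligand UMIs and a marker sum of 56349 CPM. The part of the monocyte/Mφ transcripts in these levels was not tested. In the CCR2 KO 72 h library the neutrophil-like cells gave 4.39% of all Ccl2 UMIs, and 95 of their 177 were in 1 cell.

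Other genes of the pathway were read in the same class. Of 12 CC chemokine receptors and decoys, 4 were high enough to compare. The fractalkine receptor gene Cx3cr1 was past 2-fold higher in CCR2 KO at 24 h (log2 ratio 1.95), and it was higher at 72 h than at 24 h in WT (2.59) and in CCR2 KO (1.17). Ccrl2, an atypical receptor that binds chemerin, was lower in CCR2 KO at 72 h (-2.99), higher with time in WT (1.07) and lower with time in CCR2 KO (-2.68). Ccr1, a receptor gene of monocytes and neutrophils, differed between the genotypes by log2 ratios of 0.13 at 24 h and 0.23 at 72 h, higher in CCR2 KO, which did not approach 2-fold while Ccr2 was lower. The list's median was 0.49 at 24 h and 0.12 at 72 h.

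Of 10 other CC chemokines 6 were compared. Ccl4 and Ccl3, macrophage inflammatory proteins, were past 2-fold higher in CCR2 KO at 24 h (log2 ratios 1.53 and 1.11). At 72 h Ccl5 (1.42), which attracts T cells, and the eosinophil attractant Ccl24 (1.17) were higher and Ccl3 was lower (-1.19). The list's median was 0.80 at 24 h and -0.14 at 72 h. With time Ccl24 (-2.51) and Ccl5 (-1.44) were lower in WT, and Ccl3 (-3.19), Ccl4 (-2.93), Ccl24 (-1.96) and Ccl6 (-1.54) were lower in CCR2 KO.

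Of the genes that relay the receptor's signal, 0 of 9 at 24 h and 0 of 10 at 72 h were past 2-fold between genotypes, with medians of -0.05 at both times. With 2.78% higher and 1.36% lower among all genes at 24 h, and 5.93% and 2.58% at 72 h, a count of 0 in so short a list is no result about it. With time, Arrb1, a beta-arrestin (1.01), and Rgs2, a brake on G proteins (1.01), were just past 2-fold higher in WT. In CCR2 KO the nuclear pore gene Nup85 (1.33), the kinase gene Pik3cg (1.31) and Arrb1 (1.02) were higher and Rgs1 (-1.40) was lower.

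Of 11 regulators and inducers of Ccl2 transcripts, the cytokine gene Tnf was the 1 past 2-fold higher in CCR2 KO at 24 h (log2 ratio 1.15). This stood beside 2.78% of all genes, and the list's median was -0.10. At 72 h 3 of 10 were past 2-fold lower, beside 2.58% of all genes, namely Jun, a subunit of AP-1 (-1.42), the NF-kB inhibitor gene Nfkbia (-1.23) and Zfp36, whose protein destabilises cytokine transcripts (-1.12). With time Il6 was lower in WT (-1.63), and Il6 (-3.40), Tnf (-2.75), the RNase gene Zc3h12a (-1.41), Il1b (-1.37) and Nfkbia (-1.35) were lower in CCR2 KO.

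Of 6 genes that mark Ccr2-positive monocytes, 3 were past 2-fold lower in CCR2 KO at 24 h, beside 1.36% of all genes, among them Hp (log2 ratio -2.16) and Ly6c2 (-1.18), and the median was -1.07. At 72 h 0 of the 5 compared were past 2-fold lower, beside 2.58% of all genes, so this count is no result about the list. Ly6c2 (1.90) and Vcan (1.33) were past 2-fold higher, 2 of the 5, beside 5.93% of all genes. In WT 5 of the 6 were past 2-fold lower with time, beside 6.76% of all genes, the largest being Chil3 (-2.96), Vcan (-2.58), Ly6c2 (-2.48) and Hp (-2.14), while Ccr2 itself was higher at 72 h. In CCR2 KO Chil3 was lower (-2.51).

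The genes whose pattern was most like that of each member were sought over 19 pools of class and library with at least 20 cells, among 6116 genes, by Pearson's r of log2(CPM + 10). The pools share libraries and depths, so r is a description. Ccr2 had lower r with its nearest genes than the ligands did, namely Ahnak (0.878), Emp3 (0.867) and Fam46a (0.859). Ccl2 was most like Msr1, a scavenger receptor gene (0.953), Ccl24 (0.944) and Pf4 (0.930), and among the genes most like Ccl12 were Pf4 (0.982) and C3ar1 (0.971). Ccl7 was most like Pf4 (0.969), Msr1 (0.961) and Ccl24 (0.958). Among those most like Ccl8 were the lipid receptor gene Trem2 (0.974) and F13a1 (0.957). Among the ligands r was highest between Ccl7 and Ccl12 (0.977) and lowest between Ccl2 and Ccl8 (0.767), and between Ccr2 and Ccl2 it was 0.347.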

How the data were processed

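CD45+ muscularis cells were profiled with 10x 3′ v3 chemistry. The authors deposited 1 table of raw UMI counts per library, made per the labels with Cell Ranger 3.0.2 on GRCm38 and filtered by them to cells with at least 200 genes and at most 10% mitochondrial UMIs. The processing notes also name Seurat. Gene coordinates were those of GRCm38. The 4 tables held 5811 cells. Here 10 cells were removed that had no UMI of Ptprc (the CD45 gene), at most 3 of Lyz2, and at least 3 UMIs of at least 2 non-immune markers making up at least 0.1% of the cell. Library pairs shared 4 cell barcodes in all.

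The 5801 remaining cells were clustered (scanpy 1.11.5, leidenalg 0.10.2, 2000 variable genes without the 5 members, 30 components, 20 neighbours, resolution 1). Each of 18 clusters was given the class whose markers scored highest on average, if that score reached 0.6 and 3 of the markers were detected. The 2498 monocyte/Mφ-like cells were clustered again into 12 sub-clusters, described by leading genes. UMIs were summed by class and library. Intervals were exact (Poisson for CPM, conditional binomial for ratios, Clopper-Pearson for shares). Levels needed 20 cells. Genes were compared where 1 of 2 libraries reached 20 CPM, and likeness used genes at 50 CPM in 1 pool.

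All 5 members were named. List genes were named where past 2-fold, at most 4 each way, and Ccr1 was added after its values were seen, as were the 5 regulators in CCR2 KO. For each member the 3 most alike genes were sought. A few genes that these rules named are not reported here. The members and lists were chosen with earlier results of these data known. Ratios and intervals were tried on simulated Poisson counts, the model that the intervals assume. These had no spread between cells or mice, so the trial says nothing about that spread. Scrublet marked 12 of 5801 cells, under 0.5%, and was taken not to have worked, so doublets were not removed. In 171 cells the marker score of the given class was within 0.1 of the next. Alternatives were the clustering, gate, mitochondrial limit, scaling, cell weighting and the most extreme cell. Promoters were in the RefSeq table for 3 of 5 members. Python 3.11.15, numpy 2.4.6, scipy 1.17.1 and pandas 2.3.3 were used.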

Additional observations from a re-analysis of the deposited data

Results flagged for a closer look

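The 10 cells set aside as non-immune, a part of the data outside the comparisons, held ligand transcripts. Such cells were found in the CCR2 KO libraries alone (4 at 24 h and 6 at 72 h, and 0 in each WT library), so no WT value stands beside them. In the 4 cells of CCR2 KO at 24 h Ccl2 stood at 1017.6 CPM (30 of 29481 UMIs). All 30 were in 2 cells with UMIs of the glial genes Gfap and Sox10, 13 of 12015 UMIs in 1 cell and 17 of 11430 in the other, and neither cell had a UMI of Ccl7, Ccl8 or Ccl12. In the 6 cells of CCR2 KO at 72 h Ccl2 stood at 2187.47 CPM (254 of 116116 UMIs) and Ccl7 at 1024.84 CPM (119 UMIs). These UMIs were in 3 cells with transcripts of the fibroblast genes Dcn and Lum, which had 188, 62 and 4 UMIs of Ccl2 and 66, 53 and 0 of Ccl7. No Ccl8 or Ccl12 UMI was read in any of the 10 cells. By the rule that set them aside they had no UMI of Ptprc, the CD45 gene, and they are few, so the values describe single cells and no group.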

How the results depend on the processing

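Of 80 alternative values for Ccr2 and the summed ligands in monocyte/Mφ-like cells, 37 stayed inside the counting interval of the reported log2 ratio, 43 moved outside it and 0 turned a direction that the interval had fixed. In the order Ccr2 at 72 h (CCR2 KO to WT), Ccr2 with time in WT, Ccr2 with time in CCR2 KO, summed ligands at 24 h, summed ligands at 72 h, summed ligands with time in WT and in CCR2 KO, the values that moved were as follows. With each library clustered on its own they were -3.45, 0.30, 0.85, 0.55, -1.76 and -2.06 (Ccr2 with time in CCR2 KO stayed), where class scores were put on the scale of the joint clusters, a choice made after seeing the data. With a resolution of 2 they were -3.41, 0.072 (Ccr2 with time in CCR2 KO), 0.86 (72 h), -1.92 and -1.95. With cells of at most 5% mitochondrial UMIs (52 CCR2 KO cells at 72 h) all 7 moved, to -2.78, 0.69, 0.95, 0.83, 1.005, -2.04 and -1.87. With median-of-ratios size factors they were 0.57 (Ccr2 in WT), 0.94, 0.60, -1.91 and -2.25. As a mean over single cells they were 0.47 (Ccr2 in WT), 0.89 (24 h), -1.81 and -1.96. Without the cell with the most UMIs the ligand sums were 0.86, 0.65, -1.98 and -2.18, and with a per-cell marker gate -1.99 and -2.15 with time. Of 2 settings added after seeing the data, leaving out the sub-clusters led by Igkc or by S100a9 gave -2.26, 0.58, 1.28, 1.26 (72 h), -1.998 and -1.61. Leaving out the shallow sub-cluster gave ligand sums of 0.84, 0.68, -1.99 and -2.15. Leaving out the cells Scrublet marked moved none. Of 160 values for single ligands 66 stayed, 91 moved and 3 reversed: Ccl8 with time in CCR2 KO (-1.37, sub-clusters left out) and Ccl12 at 72 h (-0.32 over single cells, -0.022 without the top cell). Fewer CCR2 KO cells are left under several of these settings. Beyond that the cause was not tested. Without a minimum level the genes past 2-fold higher were 21.8%, 25.2%, 21.2% and 22.5% of those compared, in place of 2.78%, 5.93%, 6.74% and 10.6%, and those lower at 24 h and 72 h 3.61% and 4.23% in place of 1.36% and 2.58%. With a pseudocount of 1 CPM in place of 10, 1 of the 3 genes most like Ccr2 and 1 of the 3 most like Ccl12 were shared. No paired analysis was possible because each group was 1 library, with no replicate to pair. Leaving out a replicate was not possible for the same reason. Mice were pooled, so the spread between mice was not measured. The CCR2 KO class held 218 and 149 cells, which limits the values of rare ligands there most.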
